A study of Mus musculus with 10 samples.

Results

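The 10 genes described here govern how pyruvate enters the mitochondrion or is turned into lactate, and they were followed in total RNA of crypts of mouse ileum, the epithelial pockets in which stem cells, their dividing daughters and Paneth cells sit. The genes are the pyruvate dehydrogenase kinases Pdk1, Pdk2, Pdk3 and Pdk4, the pyruvate dehydrogenase subunits Pdha1 and Pdhb, the mitochondrial pyruvate carrier subunits Mpc1 and Mpc2, lactate dehydrogenase A (Ldha) and the muscle-type pyruvate kinase (Pkm). All 10 were found by symbol among 28987 Ensembl gene IDs, and 9 of them were among the 13056 genes that passed a filter on low values. Pdk4 did not pass it. The genes were chosen by their place in the pathway and selected on measured values of these same libraries, chiefly the high Pdk3 in KO and OE against Ctrl. The members' values are therefore given as a description, with no test of them, and group values with ± are means ± SD.

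The 10 libraries fall into 3 groups of 12-week-old mice, all labelled male and C57Bl6, and all carrying VilCreER, a Cre recombinase driven by the villin promoter of intestinal epithelium. OE (n = 5) has the genotype VilCreER;icS5, labelled STAT5IEC+++, and the allele name icS5 is not spelled out. KO (n = 2) has VilCreER;Stat5 with the label STAT5IEC-/-. The label is read here as Stat5 deleted in intestinal epithelial cells and kept in other cells of the gut wall. How complete the deletion was cannot be told from bulk RNA. Ctrl (n = 3) has VilCreER;Stat5 with the label STAT5+/+, and no control of the icS5 line is analysed here. Nothing in the labels says that the libraries of a group are separate animals, so their spread may in part be technical.

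Pyruvate kinase makes pyruvate at the end of glycolysis. Pyruvate then either crosses the inner mitochondrial membrane through the carrier, a pair of Mpc1 and Mpc2, or is reduced to lactate by lactate dehydrogenase. Inside the mitochondrion the pyruvate dehydrogenase complex turns it into acetyl-CoA. The Pdk enzymes phosphorylate the Pdha1 subunit and switch the complex off. In mouse intestine, loss of Mpc1 is known to expand the stem cell compartment, and in cultured adipocytes STAT5 is known to act on the Pdk4 gene.

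Pdk3 was the member that set both Stat5 genotypes apart from Ctrl. It was higher in KO than in Ctrl and lay between them in OE, and it took a larger share of all Pdk transcripts in both. Pdk1 and the 4 Pdk genes summed lay lower in OE than in KO in scaled values. Pdk2, Pdk4, Mpc1 and Pkm were each highest in 1 control library, Ctrl 2. Pdha1, Pdhb and Ldha had overlapping values in all 3 groups.

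Several facts of the libraries touch these results. Values are TPM, a level per transcript length as a part of the library, divided by a library factor and then called scaled TPM. Sequencing depth is unknown, since TPM hold no read numbers. In scaled TPM Stat5a was at 1.56 to 3.55 in OE, 0.336 to 0.637 in KO and 1.07 to 2.60 in Ctrl, and Stat5b at 1.49 to 5.53, 0.430 to 0.482 and 0.970 to 1.76 in the same groups. The library labelled OE 1 had the lowest OE value of each gene, inside the Ctrl range. Ctrl 2 stood apart, with 83.7% of its TPM on transcripts encoded in mitochondria against 43.3% to 57.0% elsewhere, and with a factor of 0.295 against 0.831 to 1.31. Its enterocyte markers summed to 11479 scaled TPM against 743 to 7598 elsewhere, its Paneth cell markers to 422 against 3701 to 19099, and its stem cell markers to 54.4 against 73.5 to 506. Y-linked genes summed to 0.140 to 3.45 TPM in Ctrl 3, OE 3 and OE 4, against 32.3 to 131 in the others, although all mice are labelled male; Pdk3 and Pdha1 are X-linked. Epithelial markers (Epcam, Cdh1, Krt8, Krt20, Vil1, Cdx2) summed to 2021 to 3767 in OE, 2040 to 2557 in KO and 1997 to 2855 in Ctrl. In such bulk samples fewer cells of a type and less RNA per cell cannot be told apart.

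The promoters of the 4 kinases are shown because the members whose groups did not overlap were, apart from Mpc2, kinases. Each line holds the 250 bases before the most upstream RefSeq start (build GRCm38.p6), read 5′ to 3′ on the gene's own strand. Capitals mark ACGTG or GCGTG on either strand, the core letters that hypoxia-inducible factors bind; in Pdk2 a match on each strand overlaps in CACGTG. The windows lie at chrX:93832151-93832400 (minus strand, Pdk3), chr2:71872974-71873223 (plus strand, Pdk1), chr11:95041372-95041621 (minus strand, Pdk2) and chr6:5496279-5496528 (minus strand, Pdk4).
Pdk3: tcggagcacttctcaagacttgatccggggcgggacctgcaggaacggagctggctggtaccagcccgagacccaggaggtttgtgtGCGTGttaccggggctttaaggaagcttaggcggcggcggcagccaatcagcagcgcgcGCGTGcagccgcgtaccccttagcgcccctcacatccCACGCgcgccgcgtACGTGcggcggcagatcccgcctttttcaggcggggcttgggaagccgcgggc
Pdk1: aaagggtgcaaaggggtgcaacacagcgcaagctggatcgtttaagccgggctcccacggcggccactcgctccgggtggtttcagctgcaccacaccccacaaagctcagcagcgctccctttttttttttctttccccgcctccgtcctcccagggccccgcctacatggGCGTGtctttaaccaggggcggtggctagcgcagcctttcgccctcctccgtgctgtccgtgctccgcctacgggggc
Pdk2: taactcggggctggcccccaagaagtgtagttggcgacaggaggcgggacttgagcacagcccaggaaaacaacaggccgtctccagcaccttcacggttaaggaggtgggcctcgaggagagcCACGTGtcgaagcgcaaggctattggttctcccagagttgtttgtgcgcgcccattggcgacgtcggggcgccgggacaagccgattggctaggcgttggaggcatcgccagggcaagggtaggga
Pdk4: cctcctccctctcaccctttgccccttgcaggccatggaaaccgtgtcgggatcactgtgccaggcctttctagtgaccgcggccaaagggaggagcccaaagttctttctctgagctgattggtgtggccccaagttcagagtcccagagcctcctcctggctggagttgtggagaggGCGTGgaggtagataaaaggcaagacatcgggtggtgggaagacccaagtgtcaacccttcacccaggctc

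The core letters occurred 4 times in the Pdk3 window, 1 time in Pdk1, 2 times in Pdk2 and 1 time in Pdk4. They occurred in the windows of 9 of the 10 members, with Pkm as the exception, and in 38.6% of 27025 mouse promoters of the same length. The members' windows were rich in G and C, at 58.8% to 73.6% against a median of 52% over all promoters. The Pdk4 window was the poorest in CG pairs, with 6, where the other members had 15 to 32. The STAT motif TTCNNNGAA (N is any base) was found in 0 of the 10 windows and in 7.14% of all promoters, and the FOXO motif GTAAACA in 0 of the 10 and in 3.06%. These counts describe letters in 250 bases and say nothing of sites further away.

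Pdk3 (ENSMUSG00000035232, chromosome X, 93764607 to 93832201, mm10), a kinase known from the human enzyme for its high activity, was at 18.2 scaled TPM in the library labelled OE 1 and at 21.1, 21.4, 26.0 and 26.2 in OE 2, 3, 4 and 5. The KO libraries 1 and 2 held 29.8 and 36.4, and Ctrl 1, 2 and 3 held 17.7, 11.5 and 15.5. The 3 groups did not overlap: both KO libraries were the highest, every OE library lay below them, and every Ctrl library lay below every OE library, although the library labelled OE 1 and Ctrl 1 were only 18.2 and 17.7 apart. The group means were 22.6 ± 3.44 in OE (n = 5), 33.1 ± 4.65 in KO (n = 2) and 14.9 ± 3.15 in Ctrl (n = 3). Pdk3 thus lay above Ctrl both in the group with the lowest Stat5a and Stat5b and in the group with the highest.

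**Figure D1:**
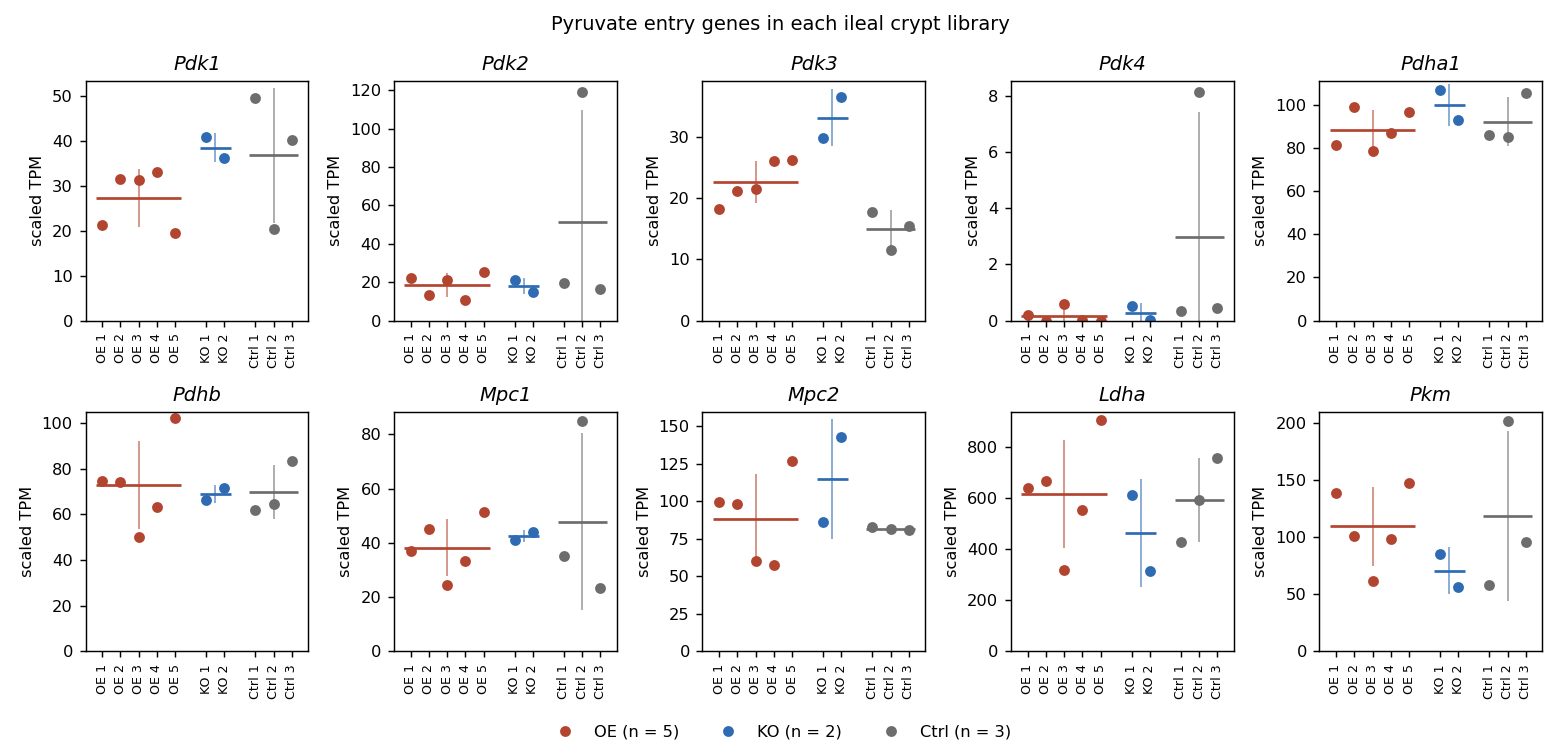
Scaled TPM (vertical axes, each from 0) of the 10 genes in every library (horizontal axes), with OE in red, KO in blue and Ctrl in grey; points are libraries, horizontal lines group means and vertical lines 1 SD, drawn no lower than 0. Pdk3 shows 3 separate levels, at 18.2 to 26.2 in OE, 29.8 to 36.4 in KO and 11.5 to 17.7 in Ctrl, and Ctrl 2 is the highest point for Pdk2, Pdk4, Mpc1 and Pkm.

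Fitted in limma over all genes, on log2(scaled TPM + 1), the difference of Pdk3 was 1.12 for KO minus Ctrl (95% interval 0.52 to 1.72), 0.58 for OE minus Ctrl (0.10 to 1.06) and -0.54 for OE minus KO (-1.09 to 0.01). These intervals carry no correction for the choice of Pdk3. OE and KO are set against the same 3 Ctrl libraries, so the OE and KO values are not separate support for each other. Without Ctrl 2 the differences from Ctrl were 0.95 for KO and 0.41 for OE, and without the 3 libraries of little Y-linked RNA they were 1.15 and 0.57. The sign was the same in all 21 alternatives for each comparison. Some alternatives cannot change the difference itself: the filters, the robust limma setting and only the 2 groups compared. The same holds for leaving out a library of the third group. As deposited, with no library factor, KO stayed above Ctrl without overlap, at 36.0 and 38.1 TPM in KO against 3.37 to 21.6 TPM in Ctrl, as was so for 8.44% of all genes tested. OE overlapped Ctrl as deposited, with 15.1 TPM in the library labelled OE 1 and 21.6 TPM in Ctrl 1.

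A ratio of TPM within a library does not depend on the library factor. The ratio of Pdk3 to its substrate Pdha1 was 0.223 in the library labelled OE 1 and 0.213, 0.272, 0.299 and 0.270 in OE 2, 3, 4 and 5. KO 1 and 2 had ratios of 0.279 and 0.391, and Ctrl 1, 2 and 3 had ratios of 0.205, 0.134 and 0.147. Both OE and KO lay wholly above Ctrl in this ratio, while OE and KO overlapped, since OE 4 was above KO 1. The nearest values of OE and Ctrl were 0.213 in OE 2 and 0.205 in Ctrl 1. Of all genes tested, 5.25% had a ratio to Pdha1 that was wholly higher in KO than in Ctrl, and 2.68% one that was wholly higher in OE than in Ctrl. On the log2 scale the ratio averaged -1.98 ± 0.21 in OE (n = 5), -1.60 ± 0.34 in KO (n = 2) and -2.65 ± 0.32 in Ctrl (n = 3), and without Ctrl 2 the mean of Ctrl was -2.53.

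The ratio of Pdk3 to Pdk1 was 0.671 to 1.34 in OE, 0.728 to 1.00 in KO and 0.355 to 0.562 in Ctrl. Ctrl lay below both other groups, and here Ctrl 2 was the highest Ctrl library, where in the ratio to Pdha1 it was the lowest. Both ratios use the same Pdk3 values, so they are not separate support for each other. The share of all genes with such a separation in the ratio to Pdk1 was not computed.

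**Figure D2:**
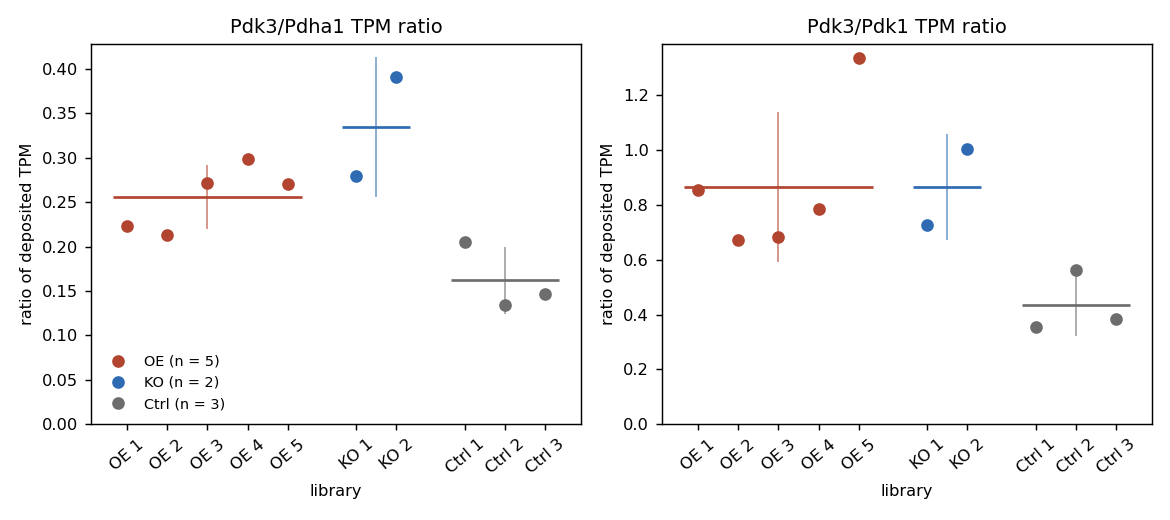
Ratio of deposited TPM of Pdk3 to Pdha1 (left) and of Pdk3 to Pdk1 (right), vertical axes from 0, in each library (horizontal axis) of OE in red, KO in blue and Ctrl in grey; horizontal lines are group means and vertical lines 1 SD. All OE and KO points lie above all Ctrl points in both panels, the closest being OE 2 at 0.213 and Ctrl 1 at 0.205 on the left.

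Markers of other cells moved with Pdk3 in part. The 6 fibroblast markers, all detected, summed to 12.8 to 107 scaled TPM in OE, 22.3 to 74.6 in KO and 10.4 to 20.5 in Ctrl. The 6 markers of macrophages and dendritic cells summed to 8.35 to 19.5 in OE, 15.9 to 23.2 in KO and 8.62 to 13.0 in Ctrl. Both lists were thus higher in KO than in every Ctrl library, as Pdk3 was and as were 9.09% of single genes tested. Other lists overlapped between KO and Ctrl. T cell markers summed to 21.8 to 92.3 in OE, 13.5 to 28.8 in KO and 17.9 to 101 in Ctrl. B and plasma cell markers summed to 17.9 to 141, 6.15 to 18.5 and 4.33 to 27.2 in the same groups. Within KO, library 2 had more Pdk3 than library 1 and fewer fibroblast transcripts (22.3 and 74.6), and the library labelled OE 1 had the most fibroblast transcripts (107) and the least Pdk3 of its group. These are values of single libraries, and the part of other cells in the level of Pdk3 was not tested. Endothelial markers summed to 0.0869 to 1.64 in OE, 0.247 to 0.635 in KO and 0.0246 to 0.484 in Ctrl, with Cdh5 at 0 in every OE and Ctrl library. Smooth muscle markers stayed at 1.31 to 3.38 in all libraries, with Myh11 at 0 in every OE and KO library.

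Pdk1 (ENSMUSG00000006494, chromosome 2, 71873224 to 71903858), a kinase known as a target of hypoxia-inducible factors, was at 21.2 scaled TPM in the library labelled OE 1 and at 31.5, 31.3, 33.1 and 19.6 in OE 2, 3, 4 and 5. The 2 KO libraries held 40.9 and 36.3, and Ctrl 1, 2 and 3 held 49.7, 20.4 and 40.4. Every OE library lay below both KO libraries. Ctrl spanned both groups, because Ctrl 2 was at the level of the lowest OE libraries and Ctrl 1 and 3 were at or above KO. The fitted difference was -0.51 for OE minus KO (-1.29 to 0.27), -0.36 for OE minus Ctrl (-1.04 to 0.32) and 0.15 for KO minus Ctrl (-0.70 to 1.01). Without Ctrl 2, OE minus Ctrl was -0.72 and KO minus Ctrl was -0.21. As deposited, OE minus Ctrl was 0.11 for Pdk1 beside a median over all genes of 0.36, and the OE and KO libraries overlapped, at 17.7 to 41.1 TPM in OE and 38.0 to 49.5 TPM in KO.

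Pdk2 (ENSMUSG00000038967, chromosome 11, 95026258 to 95041354), a widely expressed kinase of the same complex, was at 22.0 scaled TPM in the library labelled OE 1 and at 13.2, 20.9, 10.9 and 25.3 in OE 2, 3, 4 and 5. The 2 KO libraries held 21.0 and 15.0, and Ctrl 1, 2 and 3 held 19.4, 119 and 16.6. Ctrl 2 was 4.69 times as high as the next library, and the other 9 libraries showed no separation by group. The fitted difference from Ctrl was -0.91 in OE (-2.18 to 0.35) and -0.90 in KO (-2.49 to 0.68), and without Ctrl 2 it was -0.03 and -0.02.

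Pdk4 (ENSMUSG00000019577, chromosome 6, 5483351 to 5496309), the kinase induced by fasting and by fatty acids in muscle and liver, was at 0.188 scaled TPM in the library labelled OE 1 and at 0.589 and 0.0108 in OE 3 and 4, and was listed at 0 in OE 2 and OE 5. KO 1 held 0.515 and KO 2 held 0.0126, against 0.352, 8.13 and 0.456 in Ctrl 1, 2 and 3. Only Ctrl 2 exceeded 1 scaled TPM, and Pdk4 therefore did not enter the fit. A value listed at 0 can be a failed estimate, since Gapdh, a glycolysis enzyme that every cell uses, was at 16.9 to 128 scaled TPM in OE, 5.30 to 46.3 in KO and 0 to 57.9 in Ctrl, where it was listed at 0 in Ctrl 2. The enterocyte marker sum was the highest in Ctrl 2, at 11479, and the second highest in the library labelled OE 1, at 7598. The library labelled OE 1 held 22.0 of Pdk2 and 0.188 of Pdk4. Over 10 libraries, log2 Pdk2 and the log2 enterocyte marker sum had r = 0.79 and rho = 0.77, with r at 0.68 without Ctrl 2 and 0.47 without Ctrl 2 and OE 4, the 2 farthest from the median of the sum. The part of enterocyte RNA in the level of Pdk2 was not tested.

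Summed over the 4 kinases, scaled TPM came to 61.6, 65.8, 74.2, 69.9 and 71.1 in OE, with the library labelled OE 1 the lowest, to 92.2 and 87.6 in KO, and to 87.2, 159 and 72.9 in Ctrl 1, 2 and 3. OE lay wholly below KO, as was so for 4.43% of single genes tested. It overlapped Ctrl, whose lowest library, Ctrl 3, was below OE 3. Pdk3 made up 28.8% to 37.1% of the summed Pdk TPM in OE, 32.3% to 41.5% in KO and 7.21% to 21.2% in Ctrl. Its mean share was 32.9% ± 3.94 in OE (n = 5), 36.9% ± 6.51 in KO (n = 2) and 16.2% ± 7.83 in Ctrl (n = 3), and without Ctrl 2 the Ctrl mean was 20.7%. This share rests on the same Pdk3 values as its level and is not separate support. Pdk1 made up 27.5% to 47.9% in OE, 41.4% to 44.4% in KO and 12.8% to 57.0% in Ctrl. Ctrl 1 and 3, at 57.0% and 55.4% Pdk1, had the highest shares of Pdk1 of all libraries, and Ctrl 2 was 74.8% Pdk2.

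**Figure D3:**
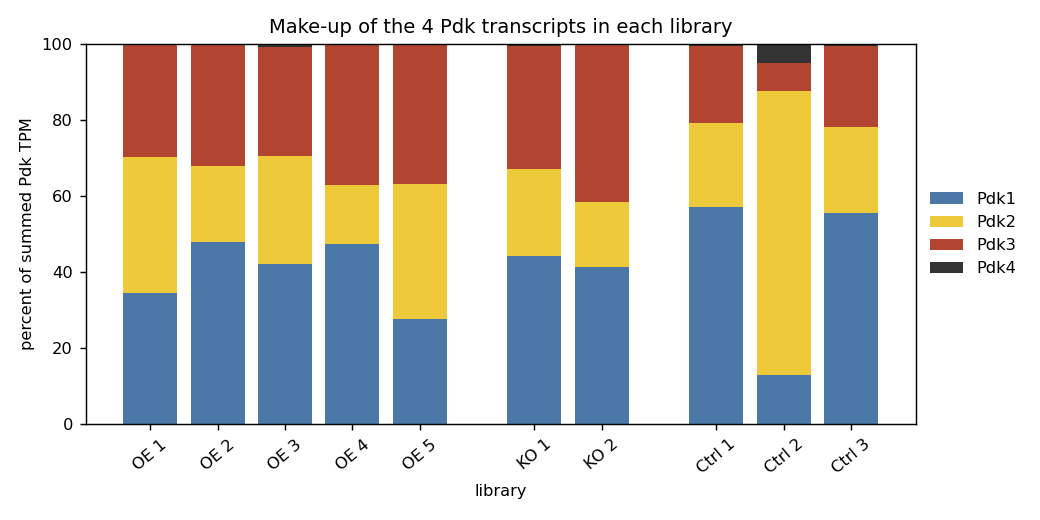
Share of each Pdk gene in the summed deposited TPM of the 4 Pdk genes (vertical axis, percent) in each library (horizontal axis), with OE at the left, KO in the middle and Ctrl at the right. Pdk3 (red) takes 28.8% to 41.5% in the OE and KO libraries and 7.21% to 21.2% in Ctrl, where Ctrl 2 is mostly Pdk2 (yellow).

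Neither dehydrogenase subunit separated the groups. Pdha1 (ENSMUSG00000031299, chromosome X, 160122209 to 160138413), which carries the phosphorylated serines, was at 78.6 to 99.0 scaled TPM in OE, 93.1 to 107 in KO and 85.2 to 105 in Ctrl. Its highest library was 1.36 times its lowest, the narrowest range of the 9 members that passed the filter. Pdhb (ENSMUSG00000021748, chromosome 14, 8165996 to 8173025), the partner subunit, was at 50.1 to 102 in OE, 66.3 to 71.7 in KO and 61.9 to 83.3 in Ctrl, with a highest library 2.04 times its lowest. Fitted differences for Pdha1 were -0.17 for OE minus KO (-0.65 to 0.30), 0.12 for KO minus Ctrl (-0.40 to 0.64) and -0.06 for OE minus Ctrl (-0.48 to 0.36). For Pdhb they were 0.04 (-0.58 to 0.67), -0.01 (-0.69 to 0.67) and 0.03 (-0.51 to 0.58) in the same comparisons. The log2 ratio of Pdha1 to Pdhb was 0.31 ± 0.29 in OE (n = 5), 0.53 ± 0.22 in KO (n = 2) and 0.41 ± 0.07 in Ctrl (n = 3).

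The carrier subunits did not move as a pair in every library. Mpc1 (ENSMUSG00000023861, chromosome 17, 8282904 to 8297661) was at 36.9 scaled TPM in the library labelled OE 1 and at 45.0, 24.4, 33.2 and 51.3 in OE 2, 3, 4 and 5. KO 1 held 41.0 and KO 2 held 44.2, against 35.3, 84.8 and 23.5 in Ctrl 1, 2 and 3. The groups overlapped, with Ctrl holding both the highest and the lowest library. Mpc2 (ENSMUSG00000026568, chromosome 1, 165460637 to 165481214) was at 99.8, 98.0, 60.2, 57.5 and 127 in the library labelled OE 1 and OE 2 to 5. KO 1 held 86.5 and KO 2 held 143, against 83.1, 81.7 and 81.0 in Ctrl 1, 2 and 3. Both KO libraries were above the narrow Ctrl range in scaled values, KO 1 by little. As deposited KO 1, at 105 TPM, lay below Ctrl 3, at 106 TPM, and this separation ended. Mpc1 was then wholly higher in KO than in Ctrl, as were 8.44% of all genes tested. The fitted difference of Mpc2 was 0.44 for KO minus Ctrl (-0.40 to 1.27), 0.04 for OE minus Ctrl (-0.62 to 0.71) and -0.39 for OE minus KO (-1.16 to 0.37). For Mpc1 KO minus Ctrl was 0.04 (-1.03 to 1.10) and OE minus Ctrl was -0.16 (-1.01 to 0.69), and without Ctrl 2 they were 0.55 and 0.35. Mpc1 was below Mpc2 in every library except Ctrl 2, with a log2 ratio of -1.43 to -0.79 in OE, -1.70 to -1.08 in KO and -1.78 to 0.05 in Ctrl.

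Of 20 relations computed across libraries (10 members against 2 marker lists), 3 had a Pearson's r beyond 0.7 in size, those of Mpc1 and Pkm with the stem cell markers Lgr5, Olfm4, Ascl2 and Smoc2 and that of Pdk2 with the enterocyte markers. They were singled out after the values were seen. Over 10 libraries, r of log2 Mpc1 with the log2 stem cell marker sum was -0.78 and Spearman's rho was -0.71. Without the 2 libraries farthest from the median of the marker sum, Ctrl 2 and the library labelled OE 1, r was -0.84, and without Ctrl 2 alone it was -0.58. For Pkm r was -0.80 and rho -0.77, with r at -0.53 without the same 2 libraries and -0.66 without Ctrl 2 alone. The libraries with the least Mpc1 were Ctrl 3 (23.5) and OE 3 (24.4), whose stem cell markers summed to 347 and 506 scaled TPM, the highest values of all. The points share the library factor, and the relations are a description of these libraries.

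Ldha (ENSMUSG00000063229, chromosome 7, 46841475 to 46855627), which reduces pyruvate to lactate, was the most abundant member in every library. It was at 638, 666, 318, 553 and 903 scaled TPM in the library labelled OE 1 and OE 2 to 5. KO 1 held 612 and KO 2 held 313, against 426, 592 and 754 in Ctrl 1, 2 and 3. The spread within each group was wide and the 3 ranges overlapped. The fitted difference was 0.41 for OE minus KO (-0.55 to 1.38), -0.39 for KO minus Ctrl (-1.45 to 0.66) and 0.02 for OE minus Ctrl (-0.83 to 0.87). Without KO 2 the first of these was -0.07. Ldhb, the subunit that favours the return of lactate to pyruvate, was at 0 to 0.839 scaled TPM in OE, 0.252 to 0.960 in KO and 0 to 0.270 in Ctrl. It was listed at 0 in 4 libraries, so no ratio of Ldha to Ldhb was formed.

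Pkm (ENSMUSG00000032294, chromosome 9, 59656368 to 59679375) makes pyruvate, and its splice forms are not separated in values per gene. It was at 139, 102, 62.1, 98.5 and 148 scaled TPM in the library labelled OE 1 and OE 2 to 5. KO 1 held 85.4 and KO 2 held 56.3, against 58.5, 202 and 96.4 in Ctrl 1, 2 and 3. The groups overlapped, and Ctrl 2 was 1.37 times the next library. The fitted difference was 0.59 for OE minus KO (-0.45 to 1.63), -0.59 for KO minus Ctrl (-1.72 to 0.55) and 0.01 for OE minus Ctrl (-0.90 to 0.92), and without Ctrl 2 the last 2 were -0.11 and 0.48.

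**Figure D4:**
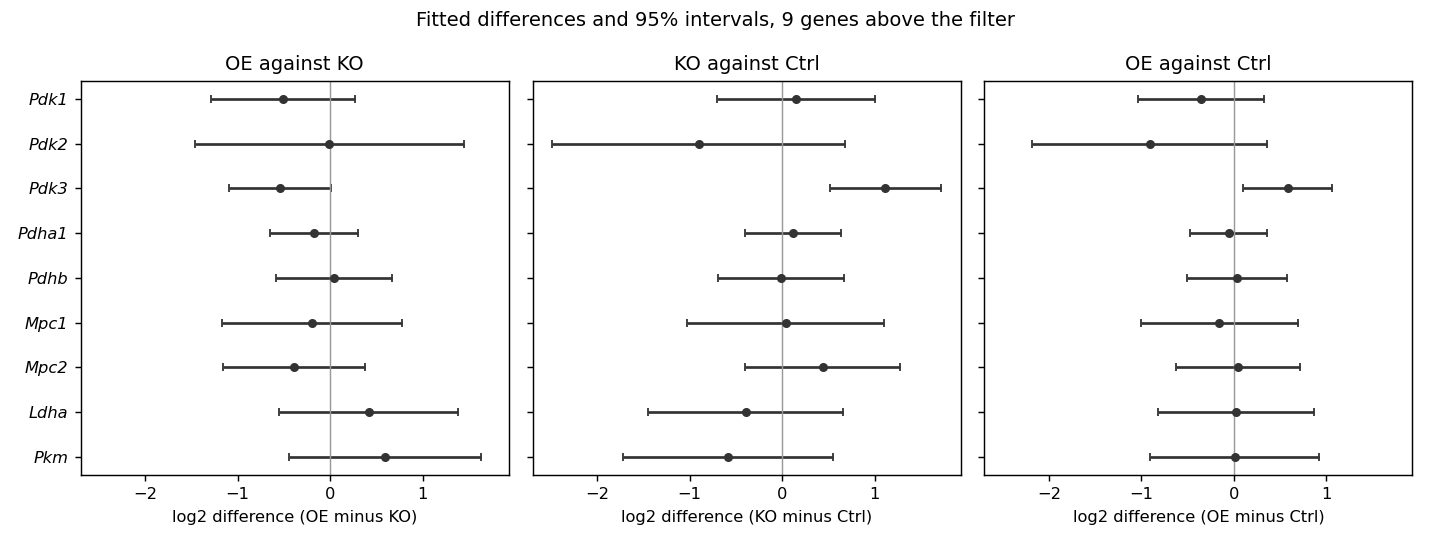
Fitted log2 differences (horizontal axes, log2(scaled TPM + 1)) with 95% intervals for the 9 members that passed the filter (vertical axis), for OE minus KO at the left, KO minus Ctrl in the middle and OE minus Ctrl at the right. The intervals of Pdk3 lie above 0 in the middle (0.52 to 1.72) and right (0.10 to 1.06) panels, and every other interval includes 0, as does that of Pdk3 at the left (-1.09 to 0.01).

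By median scaled TPM over the 10 libraries, the order was Ldha (602), Pkm (97.5), Pdha1 (90.0), Mpc2 (84.8), Pdhb (69.0), Mpc1 (39.0), Pdk1 (32.3), Pdk3 (21.3), Pdk2 (20.2) and Pdk4 (0.270). TPM are per transcript length, so genes can be ranked. Ldha was above Pkm in 10 of 10 libraries and Pdk2 above Pdk4 in 10 of 10. Neighbours in between changed places: Pkm was above Pdha1 in 5 of 10, Pdha1 above Mpc2 in 7, Mpc2 above Pdhb in 8, Pdhb above Mpc1 in 9, Mpc1 above Pdk1 in 7, Pdk1 above Pdk3 in 8 and Pdk3 above Pdk2 in 6.

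Across all genes, limma called 0 of 13056 in each comparison at a Benjamini-Hochberg adjusted p of 0.05, which is 0%. At an unadjusted p under 0.05 there were 385 genes in OE against KO, 452 in KO against Ctrl and 797 in OE against Ctrl. Of the 9 members, 0 were called in each comparison. In OE against KO, 2 members, Pdk1 and Pdk3, were lower without overlap, as were 4.43% of all genes, and 3 of 9 members had a positive difference, beside 49.9% of all genes. In KO against Ctrl, 2 members, Pdk3 and Mpc2, were higher without overlap, as were 9.09% of all genes, and 5 of 9 were positive, beside 53% of all genes. In OE against Ctrl, 1 member, Pdk3, was higher without overlap, as were 2.21% of all genes, and 5 of 9 were positive, beside 52.1%. Nothing is read from the counts with Pdk3, since the list was chosen with its values known. The median difference of the 9 members was -0.17 for OE minus KO, 0.039 for KO minus Ctrl and 0.0064 for OE minus Ctrl, beside -0.00062, 0.038 and 0.021 over all genes.

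Members moved together in a few pairs. Of 45 pairs, 5 had a Pearson's r over 10 libraries beyond 0.7 in size, and 3 of those kept it without Ctrl 2. Ldha and Pkm, neighbouring steps of lactate formation, had r = 0.74 and Spearman's rho = 0.67, and r = 0.88 without Ctrl 2. Pdhb and Ldha had r = 0.75 and rho = 0.81. Pdk1 and Pkm ran opposite ways, with r = -0.82 and rho = -0.77, and r = -0.76 without Ctrl 2. Without the 2 libraries farthest from the median of the first gene, r was 0.53, 0.40 and -0.65 in these pairs. Pdk2 and Pdk4 had r = 0.93 with Ctrl 2 and 0.42 without it. The genes whose levels were most like those of Pdk3 among 7191 protein-coding genes were Hbp1 (r = 0.92), Cdv3 (0.92), Rps27l (0.91), Scmh1 (0.88) and Eef1a1 (0.87), over 10 libraries, and without Ctrl 2 and KO 2 their r was 0.66 to 0.82. Those most like Pdk4, among 7192, were Adh1 (0.98), Crot (0.97), Gde1 (0.97), Dyrk2 (0.97) and Mfsd4b3 (0.96). Their r was 0.59 to 0.71 without Ctrl 2 and OE 2.

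The rest of the pathway gave 0 calls in every list and comparison. Of 9 tested genes for other parts of the dehydrogenase complex, its phosphatases and lipoylation, 4 were positive in OE against KO, 5 in KO against Ctrl and 2 in OE against Ctrl, with medians of -0.01, 0.08 and -0.14. Dld, the shared dihydrolipoyl dehydrogenase, was at 51.4 ± 8.11 scaled TPM in OE (n = 5), 83.1 ± 45.0 in KO (n = 2) and 56.3 ± 6.45 in Ctrl (n = 3). Dlat, the acetyltransferase subunit, was at 21.1 ± 6.37 in OE, 16.8 ± 0.0431 in KO and 23.2 ± 5.96 in Ctrl. Lias, which makes the lipoyl cofactor, was at 10.2 ± 3.33, 8.19 ± 3.99 and 13.4 ± 7.34 in the same groups. In KO against Ctrl 1 gene was lower without overlap (Dlat), beside 7.27% of all genes, and it overlapped as deposited. In that comparison 1 gene was higher (Lipt2, named after its values were seen), beside 9.09%, also as deposited. In OE against KO 1 gene was higher (Dlat), beside 4.04% of all genes, and 1 was lower (Pdp2, likewise named), beside 4.43%.

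Of 9 tested genes of lactate and pyruvate handling, 7 were positive in OE against KO, 2 in KO against Ctrl and 2 in OE against Ctrl. The median for KO minus Ctrl was -0.55 and became -0.02 without Ctrl 2. Slc16a1, the lactate transporter MCT1, was at 41.7 ± 13.6 in OE (n = 5), 65.6 ± 28.0 in KO (n = 2) and 45.9 ± 4.52 in Ctrl (n = 3). Me2, mitochondrial malic enzyme, was at 95.5 ± 27.1 in OE, 95.9 ± 14.0 in KO and 106 ± 31.8 in Ctrl, and Gpt, alanine aminotransferase, at 49.5 ± 33.8, 30.8 ± 0.0696 and 53.0 ± 36.3.

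Of 21 tested glycolysis genes, 14 were positive in OE against KO, 6 in KO against Ctrl and 8 in OE against Ctrl, with medians of 0.19, -0.25 and -0.04, and without Ctrl 2 the medians from Ctrl were -0.10 in KO and -0.07 in OE. Eno1, enolase, was at 322 ± 95 in OE (n = 5), 245 ± 81.6 in KO (n = 2) and 343 ± 167 in Ctrl (n = 3). Aldoa, an aldolase, was at 277 ± 52.3 in OE, 261 ± 33.7 in KO and 222 ± 131 in Ctrl. In KO against Ctrl 4 genes were lower without overlap (among them Pfkfb3, Pgam1 and Pklr, named after their values were seen), beside 7.27% of all genes, and 1 was higher (Eno3), beside 9.09%. As deposited Pfkfb3, Pgam1 and Pklr overlapped and Eno3 did not. In OE against Ctrl 2 genes were lower without overlap (Gpi1 and Pfkfb2, likewise named), beside 1.52% of all genes, and both overlapped as deposited. In OE against KO 1 gene was lower without overlap, beside 4.43% of all genes. It was Gpi1, the isomerase of glucose 6-phosphate, at 91.0 to 111 scaled TPM in OE and 116 to 149 in KO. In the same comparison 1 gene was higher without overlap, beside 4.04% of all genes. It was Pfkfb3, a kinase that makes an activator of glycolysis, at 2.05 to 5.97 scaled TPM in OE and 0.392 to 0.454 in KO, with 0.474 to 3.12 in Ctrl.

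Of 18 genes of the TCA cycle, which takes up the acetyl-CoA, 13 were positive in OE against KO, 6 in KO against Ctrl and 6 in OE against Ctrl. Their medians were 0.21, -0.28 and -0.21, and without Ctrl 2 the medians from Ctrl were -0.07 in KO and 0.04 in OE. Sdha was at 1189 ± 205 in OE (n = 5), 1325 ± 47.3 in KO (n = 2) and 1269 ± 92.2 in Ctrl (n = 3), and Mdh1 at 352 ± 103, 291 ± 1.84 and 434 ± 206 in those groups. In KO against Ctrl 4 genes were lower without overlap, beside 7.27% of all genes. Among them were Cs, Dlst and Mdh1, of which Cs and Dlst were named after their values were seen. As deposited Cs, Dlst and Mdh1 overlapped. Suclg2, of succinyl-CoA ligase, was higher in KO than in Ctrl without overlap in scaled values, beside 9.09% of all genes, and overlapped as deposited.

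Hypoxia-inducible factors and PPARs are known inputs to Pdk genes. Of 12 targets of hypoxia-inducible factors outside glycolysis, 6 were positive in OE against KO, 4 in KO against Ctrl and 4 in OE against Ctrl. Their medians of -0.15 for KO minus Ctrl and -0.20 for OE minus Ctrl became 0.14 and 0.09 without Ctrl 2. Egln3, Car9 and Bnip3l were its most abundant members, and Egln3, an oxygen sensor, was at 30.5 ± 18.6 in OE (n = 5), 16.5 ± 6.90 in KO (n = 2) and 27.4 ± 9.13 in Ctrl (n = 3). Car9, a carbonic anhydrase, was at 25.6 ± 6.79, 28.2 ± 5.59 and 31.7 ± 13.9, and Bnip3l, a mitophagy receptor, at 30.4 ± 3.74, 37.1 ± 11.3 and 39.0 ± 22.1, in the same groups. Of 14 PPAR and fasting genes, 5 were positive in OE against KO, 5 in KO against Ctrl and 2 in OE against Ctrl. Their medians of -0.20 for KO minus Ctrl and -0.25 for OE minus Ctrl became 0.17 and 0.01 without Ctrl 2. Hadha, of fatty acid oxidation, was at 221 ± 56.6 in OE, 226 ± 107 in KO and 295 ± 53.0 in Ctrl, and Acadm at 59.2 ± 11.7, 77.3 ± 8.34 and 70.6 ± 21.0.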

How the data were processed

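The authors deposited 1 table of TPM per library for 28987 Ensembl gene IDs, with the unit named per the file headers in 9 of 10 tables; that of Ctrl 1 was taken from its values, which sum as the others do. The submitters' processing notes name TopHat, Cufflinks and mm10; the tool behind the TPM, the annotation and the strand setting are not stated in what was used here. Symbols, positions and classes came by ID from GENCODE M21 (GRCm38, the assembly of mm10), with a symbol for 27458 IDs. Of the 10 members, 0 share all their values with another ID. Promoters came from RefSeq (GRCm38.p6), and 10 of 10 members matched by symbol. For Ldha the bases just after the window were not found in its GENCODE transcripts. Its window (chr7:46845554-46845803) lies inside the GENCODE span of the gene, and so do the windows of Mpc1 and Mpc2. Those of Pdk3, Pdk4, Pdhb and Pkm reach into the span in part. The letters of all these windows count with that limit. No protein sequences were used.

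TPM were divided by median-ratio factors over the 11146 genes above 0 everywhere. Genes at 1 TPM or more in 2 or more libraries entered limma 3.58.1 under R 4.3.3, as log2(scaled TPM + 1), with 3 group means, a mean-variance trend and p adjusted over every gene in the fit. Adding 1 understates changes of low genes. Group values are mean ± SD.

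The members, gene lists and motifs were chosen with earlier results of these data known. Named genes were the members, Stat5a, Stat5b, the 3 most abundant genes of each list, and the 5 genes most correlated with Pdk3 and with Pdk4 (protein-coding, mean of 5 scaled TPM or more). Ero1a, 1 of the 13 hypoxia targets, was not matched by symbol. Some genes that this rule names are not reported here. Alternatives were other scalings, pseudocounts, filters and limma settings, a replicate block, and leaving out each library. The alternative without Ctrl 3, OE 3 and OE 4 was chosen after seeing the data.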

Additional observations from a re-analysis of the deposited data

Results flagged for a closer look

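Among 21 OE groups of values examined for a sample far from the others, of which chance flags about 1 in 20, 1 was flagged. The ratio of Pdk3 to Pdk1 was 1.34 in OE 5 (1.337) against 0.671 to 0.856 in the other 4 OE libraries. OE 5 had the highest Pdk3 of its group, at 26.2 scaled TPM against 26.0 in OE 4, and the lowest Pdk1 of all libraries, at 19.6.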

How the results depend on the processing

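No member was called under any of the 21 alternatives of each comparison. The count of genes called, 0 in each comparison, became 5 in KO against Ctrl and 7 in OE against KO with no filter, and 1 in KO against Ctrl and 1 in OE against Ctrl with only the 2 groups compared in the fit. It was 1 in OE against Ctrl and 1 in OE against KO without Ctrl 3, OE 3 and OE 4 together. With a replicate block OE against Ctrl had 3 calls, and the other counts stayed at 0. Deviations of same-numbered libraries from their group means had r of -0.18 to 0.06 across genes in 7 pairs. With 2 KO libraries and Ctrl 2 standing apart, this cannot tell whether equal numbers mark a shared handling. Leaving out 1 library gave 0 to 2 calls in KO against Ctrl (2 without KO 1), 0 to 1 in OE against Ctrl (1 without KO 1 or KO 2) and 0 to 2 in OE against KO (2 without KO 1). The cause of these changes was not tested. The sign was the same in all 21 alternatives for Pdk3 in 3 comparisons, for Pdk1 in OE against KO, for Pdk2 in both comparisons with Ctrl, and for Pkm, Mpc2 and Pdha1 in OE against KO and KO against Ctrl. Part of this was fixed in advance, since filters, the robust limma setting and libraries outside the comparison leave a difference unchanged. For Pdk2 the differences without Ctrl 2 were only -0.02 in KO and -0.03 in OE. With values as deposited, the median difference from Ctrl over all genes was 0.38 in KO and 0.36 in OE. These medians are not the shift of each member. For Pdha1 the difference went from 0.12 to 0.64 in KO and from -0.06 to 0.44 in OE. TPM keep no depth, which limits what can be said of Pdk4, Ldhb and the Stat5 genes.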
